A study of Mus musculus with 80 samples.

Results

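Mitochondrial solute carriers are proteins of the SLC25 family, most of which move metabolites, nucleotides and cofactors across the inner membrane of the mitochondrion. The members described here are all genes of the deposited table whose symbol starts with Slc25a, 43 of 10842 genes. Slc25a37 was not analysed here. The table holds Q3-normalised signal, that is, probe counts scaled by the authors so that the third quartile of each region is the same.

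In muscle these carriers join the fibre's cytosol to its respiratory chain. Adenine nucleotide translocators exchange ADP for ATP, the phosphate carrier brings in phosphate for ATP synthesis, and the oxoglutarate and aspartate-glutamate carriers together run the malate-aspartate shuttle, which passes reducing equivalents into the mitochondrion. The carnitine-acylcarnitine carrier brings in fatty acids for oxidation, and the ATP-magnesium/phosphate carriers, some of which bind calcium, adjust the adenine nucleotide pool of the matrix.

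The regions were areas of tibialis anterior cross sections, profiled with GeoMx probes for the mouse transcriptome, whose barcodes are cut loose in a chosen area and counted. All mice were C57Bl/6 with the genotype label WT. 6 carried the treatment label tauopathy, for expression of P301L tau (animals T7, T13, T14, T15, T20 and T30), and 6 the label control (C2, C3, C16, C20, C30 and C40). The design text calls the controls matched by sex and age. What the control mice received was not used here, nor was their age. The deposited name mentions the viral vector AAV8, and an effect of the vector cannot be told apart from one of tau. The regions of tau mice numbered 9 nerve bundle, 10 surrounding artery, 11 central nuclei (none from T30) and 9 normal fibres. The regions of control mice numbered 9, 10, 11 and 11 of the same types. The labels give 4 female and 2 male tau mice and 3 of each sex among controls, which departs from the design text of 3 per sex and treatment. The labelled sex is itself in doubt, since the Y-linked gene Eif2s3y had a ratio to the negative probe of 0.513 to 4.3 in animals labelled female and of 0.378 to 1.57 in those labelled male.

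Each of 3 slides, told apart by the scan named in the header, carried 2 tau and 2 control animals. Total counts ran from 145488 to 3356105 per region. The negative probe value, the background signal of probes that match no gene, had a median of 25.1 on slide 1, 46.2 on slide 2 and 34.1 on slide 3. Both background and depth also went with treatment inside slides: on the log2 scale the negative probe value (mean of the normal, nerve bundle and artery regions) was higher in tau than in control animals by 0.28, 0.09 and 0.33 on slides 1, 2 and 3, and the log2 total count by 0.95, 0.43 and 1.26. All regions carry the cell type label myofibers. Markers of fast fibres stood over the negative probe in 10 of 10 genes, with a median ratio of 385, whereas 0 of 6 slow-fibre markers reached 1.5 times the negative probe in 50% of the regions. Of the Schwann cell markers 6 were in the table and 3 reached that level. Of the smooth muscle markers Myh11 had a median ratio of 1.64. A region is a mixture of cells, so fewer cells of a type and less RNA per cell cannot be told apart.

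Most members stood over the background. A value of at least 1.5 times the negative probe in 50% of the 80 regions was reached by 38 of 43 members (88.4%), against 55.5% of all genes in the table. At 2 times the negative probe the count was 27 of 43 (62.8%), against 28.9% of all genes. The median of the members' ratios was 2.22, against 1.56 over all genes. The ratio ranks probes and not amounts of RNA, since each gene is read by its own probe.

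4 members had a median ratio over 10. They were Slc25a4, an adenine nucleotide translocator (89.4), Slc25a3, the phosphate carrier (28.8), Slc25a11, the oxoglutarate carrier (17.3), and Slc25a12, the aspartate-glutamate carrier aralar (11.1). Another 10 lay between 3 and 10. Among them were the poorly characterised Slc25a34 (6.78), the ATP-magnesium/phosphate carriers Slc25a24 (6.52), Slc25a25 (5.82) and Slc25a23 (3.73), the carnitine-acylcarnitine carrier Slc25a20 (4.70) and the second aspartate-glutamate carrier Slc25a13, or citrin (3.77). Slc25a14, an uncoupling protein relative (4.11), Slc25a21, the oxodicarboxylate carrier (3.90), Slc25a2, an ornithine carrier (3.56), and Slc25a10, the dicarboxylate carrier (3.56), complete that class.

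Another 24 members had a median ratio from 1.5 to 3. The adenine nucleotide translocators Slc25a5 (1.95) and Slc25a31 (1.80) were in it, as were the citrate carrier Slc25a1 (1.92), the coenzyme A carrier Slc25a42 (1.92), the pyrimidine nucleotide carriers Slc25a33 (2.06) and Slc25a36 (2.38), the NAD carrier Slc25a51 (2.38), the iron carrier Slc25a28, or mitoferrin 2 (2.00), and the glutathione carrier Slc25a39 (1.85). 5 members stayed under 1.5, and for most of these the signal was close to that of probes with no target. They were Slc25a47 (1.49), Slc25a27, or UCP4 (1.47), the S-adenosylmethionine carrier Slc25a26 (1.46), Slc25a41, an ATP-magnesium/phosphate carrier relative (1.35), and Slc25a40, related to Slc25a39 (1.13). Slc25a26 was an exception, with a ratio of 2.44 on slide 1, 1.102 on slide 2 and 1.46 on slide 3. Slc25a40 reached 1.5 times the negative probe in 10 of 80 regions, and Slc25a4, Slc25a3, Slc25a11 and Slc25a12 in all 80. At 1.5 times the negative probe 19 members passed in all 80 regions, and at 2 times 12 did.

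The set of members over the background was similar in size in each region type. The median ratio was at least 1.5 for 40 members in nerve bundle, 37 around arteries, 39 in central nuclei regions and 39 in normal fibres. By slide it was 40, 36 and 39 members on slides 1, 2 and 3. Slc25a42 shows the effect on a member near the threshold. Its median ratio was 3.04 on slide 1, 1.16 on slide 2 and 2.09 on slide 3.

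**Figure D1:**
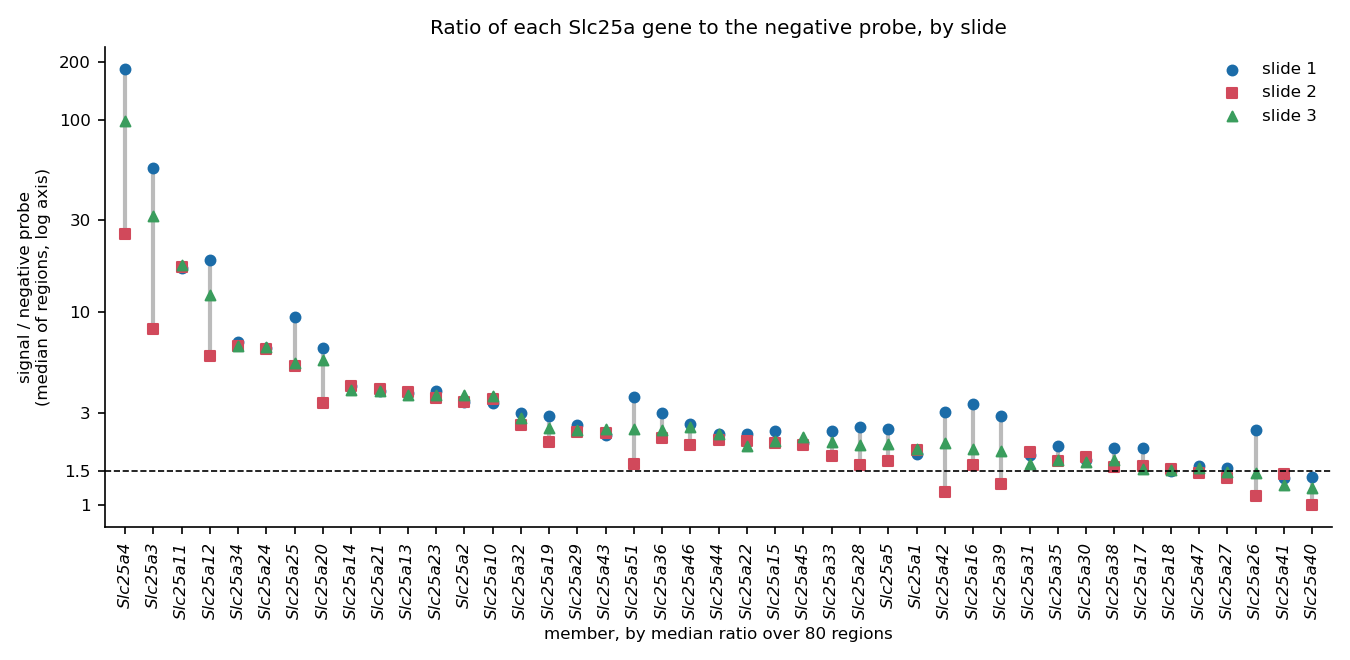
Median ratio of signal to the negative probe on slides 1, 2 and 3 (log axis) for the 43 members, ordered by the median ratio over 80 regions, with a dashed line at 1.5. The ratio of Slc25a4 spans 25.6 to 184 over the slides, whereas the 3 symbols of Slc25a11 lie between 17.0 and 17.6.

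The members were split in 2 by their ratio over slides, a split made after the values were seen and given with no test. In 23 of 43 members (53.5%) the ratio to the negative probe was within 1.2-fold over the 3 slides, against 28.3% of all genes. The fold had no clear gap at this cut, being 1.157 in the highest member below it and 1.201 in the lowest above it. At 1.1-fold the count was 17 (39.5%), against 11.7% of all genes. The oxoglutarate carrier Slc25a11 had ratios of 17.0, 17.2 and 17.6 on slides 1, 2 and 3, while its signal was 421, 815 and 604. Its signal thus moved over slides in step with the negative probe, which differed 1.84-fold. Slc25a24 had ratios of 6.49, 6.44 and 6.59, and Slc25a34 of 7.01, 6.64 and 6.67. A near-constant ratio goes with a signal highest on slide 2, where the negative probe was highest, and this held for all 23 by the way they were chosen.

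In the other 20 members the ratio differed by more than 1.2-fold. It was highest on slide 1 in 20 of them and lowest on slide 2 in 19. Slc25a4 had ratios of 184, 25.6 and 98.1 on slides 1, 2 and 3 and a signal of 4789, 1135 and 3480, so its signal was 4.22-fold higher on slide 1 than on slide 2. Slc25a3 had ratios of 56.4, 8.21 and 31.6, Slc25a12 of 18.8, 5.92 and 12.3, and Slc25a20 of 6.52, 3.36 and 5.66. The aspartate-glutamate carriers thus parted, since Slc25a13 had ratios of 3.82, 3.84 and 3.72. The 20 members did not share a pattern of signal: 8 members had their lowest signal on slide 2. The adenine nucleotide translocator Slc25a5 had ratios of 2.47, 1.67 and 2.06 but a signal of 61.1, 80.3 and 70.9, highest on slide 2, unlike Slc25a4.

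Genes outside the family that mark mitochondria were not split in this way. Of 16 genes of respiratory enzymes and other mitochondrial proteins, 0 kept their ratio within 1.2-fold over slides, and Atp5a1, a subunit of ATP synthase, had ratios of 181, 20.8 and 94.2. Of 27 other genes of mitochondrial transport, 2 did (Sfxn2 and Sfxn5, sideroflexins, named after their values were seen), and Vdac1, an outer-membrane channel, had ratios of 34.7, 8.24 and 24.1. Of 9 regulators of mitochondrial genes and of 10 fast-fibre markers, 0 did. In other marker lists 4 of 6 slow-fibre, 3 of 5 macrophage, 2 of 3 white adipocyte and 2 of 6 Schwann cell markers did. So did 1 of 6 endothelial, 1 of 5 smooth muscle and 0 of 5 fibroblast markers. A near-constant ratio was thus not particular to the family.

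The signal differed between slides by limma's F test in 38 of 43 members (88.4%), against 71.6% of the 10188 genes tested. The adjusted p was 1.59e-06 for Slc25a3, 7.62e-06 for Slc25a4 and 0.000135 for Slc25a11, with slide 2 lowest in Slc25a3 and Slc25a4 and highest in Slc25a11. Slc25a20, Slc25a25, Slc25a26, Slc25a28 and Slc25a51 did not pass. On the log2 ratio to the negative probe, a scale chosen after seeing the data, 19 of 43 members passed the same test, where 66.2% of genes did.

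No member differed between region types by the test. The smallest p values in nerve bundle and around arteries belonged to the carnitine-acylcarnitine carrier Slc25a20 and the phosphate carrier Slc25a3. In nerve bundle against normal fibres, compared within animals, 0 of 43 members had an adjusted p under 0.05 (limma), and percent called was 0 over all genes tested. At an unadjusted p under 0.05, 2 members were higher (4.65%, against 3.84% of all genes) and 0 lower (0.157% of all genes). The 3 members with the smallest p were Slc25a20, Slc25a3 and Slc25a18, a glutamate carrier. Around arteries 0 members passed, percent called was again 0, and 4 were higher at an unadjusted p under 0.05 (9.3%, against 8.92% of all genes) and 0 lower (4.87% of all genes). The 4 were Slc25a20, Slc25a3, Slc25a4 and Slc25a12. By edgeR on recovered reads 0 members passed in either comparison, with 2 in nerve bundle and 4 around arteries at an unadjusted p under 0.05.

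Slc25a20 had a signal in nerve bundle of 157, 174 and 198 (lowest, median and highest of 6 tau animals) and of 142, 224 and 241 in the 6 control animals. In normal fibres it had 146, 165 and 191 in tau animals and 134, 139.9 and 193 in control animals. Its nerve bundle signal was higher than its normal-fibre signal in 10 of 12 animals, by 0.26 ± 0.0831 on the log2(signal + 1) scale (SE, n = 12 animals, limma adjusted p = 0.809), and by 0.34, 0.18 and 0.26 on slides 1, 2 and 3. Around arteries it had 149, 171 and 255 in tau animals and 149, 178 and 294 in control animals. The artery signal was higher than the normal-fibre signal in 11 of 12 animals, by 0.24 ± 0.0773 (limma adjusted p = 0.316), and by 0.38, 0.08 and 0.25 on the slides.

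Slc25a3 had a nerve bundle signal of 368, 832 and 1376 in tau animals and of 394, 1650.2 and 2122 in control animals. In normal fibres it had 199.8, 1008 and 1382 in tau animals and 350.1, 1082 and 1419 in control animals. The groups overlapped widely, and each held 2 animals of slide 2, where the signal was lowest. Within animals nerve bundle was higher in 10 of 12, by 0.30 ± 0.122 (limma adjusted p = 0.809), with 0.14, 0.52 and 0.23 on slides 1, 2 and 3. Around arteries the difference from normal fibres was 0.24 ± 0.0782 (adjusted p = 0.316, higher in 10 of 12 animals).

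Slc25a4 had a signal of 739, 3213 and 5481 around arteries in tau animals and of 865, 4443 and 5321 in control animals, against 379, 3213 and 4695 in normal fibres of tau animals and 958, 3473 and 4572 in those of control animals. Around arteries the difference from normal fibres was 0.26 ± 0.0884 (limma adjusted p = 0.316, higher in 10 of 12 animals, and 0.17, 0.38 and 0.23 on slides 1, 2 and 3), and in nerve bundle 0.26 ± 0.127 (limma adjusted p = 0.809). Slc25a11, of similar rank over the negative probe, differed by 0.01 ± 0.0535 around arteries (adjusted p = 0.950, 95% interval of the difference -0.10 to 0.12) and by -0.03 ± 0.0707 in nerve bundle (adjusted p = 0.923). Slc25a3, Slc25a4 and Slc25a41 also had the largest spread over region types inside an animal, with a median SD over 12 animals of 0.30, 0.26 and 0.22 on the log2 scale, against 0.07 to 0.30 over all members.

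**Figure D2:**
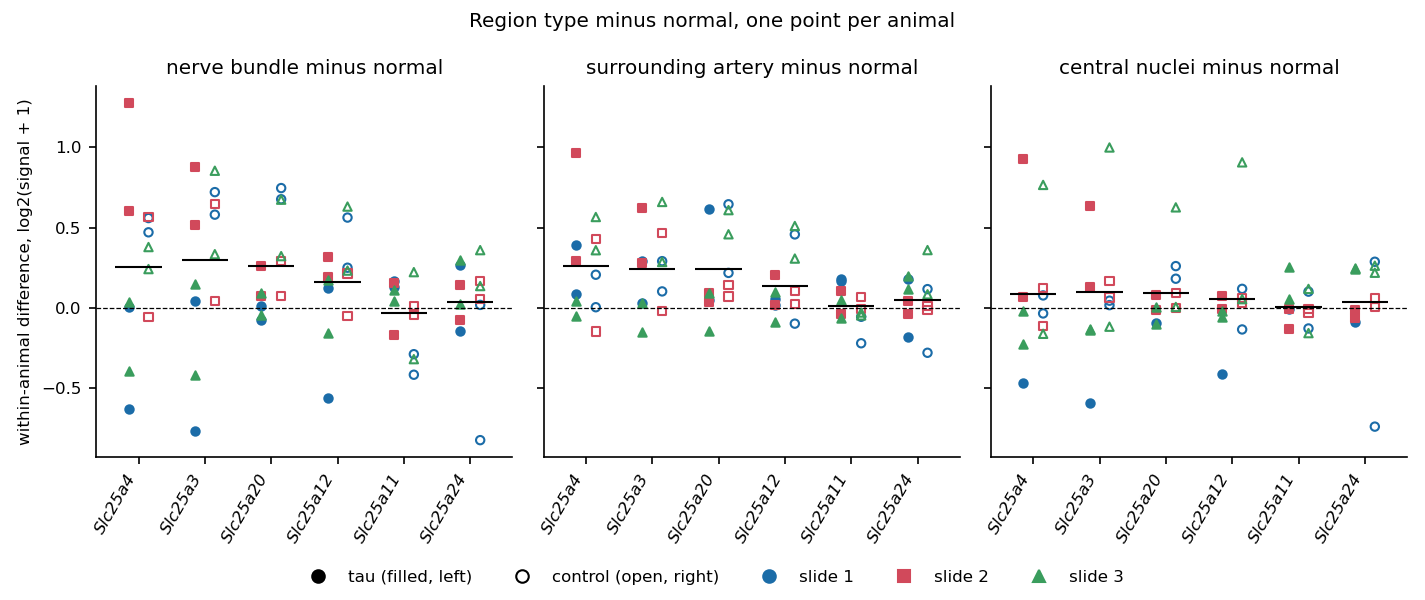
Difference of each region type from normal fibres within an animal, on the log2(signal + 1) scale, for 6 members (tau filled, left; control open, right; symbols give the slide, bars the mean). For Slc25a20, 10 of 12 animals lie above 0 in nerve bundle and 11 of 12 around arteries, while the points of Slc25a11 lie on both sides of 0 in each panel.

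Genes of mitochondrial content had differences of the same sign and did not pass either. Of 16, 16 had a difference above 0 in nerve bundle (median 0.26) and 16 around arteries (median 0.25). Over all genes tested 47.8% were above 0 in nerve bundle and 52.4% around arteries, and of the 43 members 18 were in each. Uqcrc1, a subunit of respiratory complex III, was higher by 0.32 ± 0.113 in nerve bundle (adjusted p = 0.809) and by 0.36 ± 0.0909 around arteries (adjusted p = 0.311). Of 27 other transport genes, 19 were above 0 in nerve bundle and 24 around arteries, with Vdac1 higher by 0.25 ± 0.0742 around arteries (adjusted p = 0.311). Among 9 regulators, Perm1, a muscle regulator of oxidative genes, was higher by 0.37 ± 0.0937 around arteries (adjusted p = 0.311). Of 5 smooth muscle markers Acta2 had a median ratio to the negative probe of 2.57 around arteries, 2.37 in nerve bundle and 0.99 in normal fibres, and Myh11 one of 1.85, 1.82 and 1.56, while the sum of the list is mostly Des, which fibres also express. That of 6 Schwann cell markers had a median of 531 in nerve bundle and 408 in normal fibres of tau animals, and of 415 and 321 in control animals. The part of these cells in the differences was not tested.

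Central nuclei, a mark of fibres that have regenerated, came with no called difference. 0 of 43 members passed, percent called was 0, and 0 members had an unadjusted p under 0.05, where 0.697% of all genes were higher and 0.137% lower. The difference was above 0 in 24 of 43 members (55.8%), against 54.6% of all genes. The 3 members with the smallest p were Slc25a22, a glutamate carrier (-0.19 ± 0.0918), Slc25a2 (0.14 ± 0.0852) and Slc25a29, a carrier of basic amino acids (-0.12 ± 0.0786), each with a limma adjusted p of 0.9996 over 11 animals. Their differences on slides 1, 2 and 3 were -0.20, -0.0008 and -0.37 for Slc25a22, 0.25, -0.04 and 0.24 for Slc25a2, and -0.13, -0.06 and -0.18 for Slc25a29.

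The region differences were also compared between tau and control animals, and 0 of 43 members passed in any of the 3 region types, with percent called 0 in each. At an unadjusted p under 0.05 the difference was lower in tau for 1 member in nerve bundle (2.33% of members and of all genes) and higher for 0 (3.58% of all genes). Around arteries 2 were higher (4.65%, against 3.21% of all genes) and 2 lower (4.65%, against 2.32%), and in central nuclei 0 were higher (1.5% of all genes) and 0 lower (1.51%). The difference was above 0 for 27 members in nerve bundle (60.9% of all genes), 29 around arteries (53.5%) and 21 in central nuclei (48.2%). For Slc25a20 the nerve bundle difference from normal fibres averaged 0.05 ± 0.12 in tau animals and 0.46 ± 0.27 in control animals (SD, n = 6 each). The difference between them was -0.41 ± 0.166 (limma adjusted p = 0.772), and -0.74, -0.01 and -0.48 on slides 1, 2 and 3. Slc25a3 averaged 0.07 ± 0.60 in tau animals and 0.53 ± 0.295 in control animals (adjusted p = 0.772), with the wider spread in tau animals, unlike Slc25a20. Slc25a43, a poorly characterised member, averaged -0.13 ± 0.13 in tau animals and 0.14 ± 0.24 in control animals (adjusted p = 0.772). Around arteries the 3 members with the smallest p were Slc25a43 (-0.39 ± 0.141), Slc25a29 (0.37 ± 0.140) and Slc25a27 (-0.36 ± 0.162), each with a limma adjusted p of 0.844. In central nuclei they were Slc25a30, an uncoupling protein relative (0.30 ± 0.177), Slc25a5 (-0.22 ± 0.135) and Slc25a20 (-0.22 ± 0.139), each with a limma adjusted p of 0.99998. Mitochondrial content genes had a median difference of -0.41 between tau and control in the nerve bundle comparison, below 0 in 14 of 16.

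The promoters of Slc25a4, Slc25a3 and Slc25a20, the 3 members with the smallest p around arteries, are shown for reference. Each runs from 250 bases before to 50 after the listed start (RefSeq, GRCm38.p6, 5′ to 3′ on the strand of the gene). The listed start is not always the outer end of the gene. Capitals mark the motifs searched on both strands: the ETS core CCGGAAG, the GC box GGGCGG and the estrogen-related receptor element AAGGTCA.
Slc25a4, chr8:46211013-46211312, minus strand: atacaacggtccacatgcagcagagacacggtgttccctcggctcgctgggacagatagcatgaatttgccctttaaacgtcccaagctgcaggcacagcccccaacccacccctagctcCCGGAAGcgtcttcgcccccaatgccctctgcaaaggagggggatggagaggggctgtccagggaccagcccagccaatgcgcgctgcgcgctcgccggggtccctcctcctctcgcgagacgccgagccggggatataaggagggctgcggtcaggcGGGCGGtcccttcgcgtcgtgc
Slc25a3, chr10:91123918-91124217, minus strand: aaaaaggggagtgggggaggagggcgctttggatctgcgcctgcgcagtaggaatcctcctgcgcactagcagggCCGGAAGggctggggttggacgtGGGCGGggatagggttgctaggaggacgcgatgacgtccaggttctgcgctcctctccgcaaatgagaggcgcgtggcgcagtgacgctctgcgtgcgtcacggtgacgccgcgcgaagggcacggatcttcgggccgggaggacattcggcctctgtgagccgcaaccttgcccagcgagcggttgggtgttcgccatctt
Slc25a20, chr9:108661886-108662185, plus strand: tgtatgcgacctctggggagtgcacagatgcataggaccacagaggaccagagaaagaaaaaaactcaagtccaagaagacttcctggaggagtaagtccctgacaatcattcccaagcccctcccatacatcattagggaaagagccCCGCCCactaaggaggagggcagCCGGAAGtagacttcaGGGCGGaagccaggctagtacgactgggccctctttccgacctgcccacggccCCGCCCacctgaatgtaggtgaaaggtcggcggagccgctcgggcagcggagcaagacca

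Each of the 3 windows held an ETS core and a GC box, and none held AAGGTCA. The promoter set used here held 33 of the 43 members. The GC box was in 28 of these 33 (84.8%) and in 35.9% of all 27025 promoters, the ETS core in 6 (18.2%, against 9.12%) and the estrogen-related receptor element in 1 (3.03%, against 4.66%). These are matches of letters in a 300-base window, and binding was not measured.

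Tau muscle had higher signal than control muscle for many members, by small amounts, and 0 of 43 members passed in the mean over normal, nerve bundle and artery regions (limma, slide as covariate, lowest adjusted p 0.0643). Percent called over all genes was 0. At an unadjusted p under 0.05, 17 members were higher (39.5%, against 16.1% of all genes) and 1 lower (2.33%, against 3.78%). The difference was above 0 in 34 of 43 members (79.1%), against 72.3% of all genes, with a median of 0.16 over the members and 0.09 over all genes. The 3 members with the smallest p were the poorly characterised Slc25a45, Slc25a47, known from liver, and the ATP-magnesium/phosphate carrier Slc25a24. With only genes at 2 times the negative probe in 50% of regions tested, 9 of 27 members passed (33.3%, against 8.63% of the 3128 genes tested). All 9 were higher in tau, namely Slc25a2, Slc25a10, Slc25a11, Slc25a13, Slc25a21, Slc25a24, Slc25a29, Slc25a34 and Slc25a45. Leaving out 1 animal gave 8 called members without C3 (1.89% of all genes), 6 without T30 (1.64%) and 10 without T7 (3.65%), and 0 without any of the other 9 animals. Of the 10 called without T7, Slc25a3 was lower in tau (-0.45 ± 0.103, limma adjusted p = 0.0294). By edgeR on recovered reads 0 members passed, and 17 had an unadjusted p under 0.05. The 9 members called with the stricter filter in this mean are among the 23 members whose ratio to the negative probe was within 1.2-fold over slides. Those 23 were chosen on the same values, as members whose signal moved with the negative probe. The negative probe was also higher in tau, so the overlap depends on that choice and is no result about the called members.

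Slc25a24 had a signal of 181, 254 and 362 (lowest, median and highest) in tau animals and of 131, 174 and 292 in control animals. The groups overlapped over slides, yet on slides 1, 2 and 3 both tau animals were above both control animals. The difference was 0.48 ± 0.106 (SE, n = 6 each, limma adjusted p = 0.0643), and 0.55, 0.35 and 0.54 by slide. Slc25a11 had 484, 676 and 999 in tau animals and 351, 478 and 795 in control animals, a difference of 0.48 ± 0.110 (limma adjusted p = 0.0643), and 0.60, 0.36 and 0.50 by slide. Slc25a45 had 60.5, 84.3 and 114 in tau animals and 39.5, 63.2 and 94.8 in control animals, a difference of 0.44 ± 0.0903 (limma adjusted p = 0.0643), and 0.63, 0.27 and 0.41 by slide. Slc25a47 differed by 0.44 ± 0.0922 (adjusted p = 0.0643), at a median ratio to the negative probe of 1.49.

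Among amino acid, organic acid and other carriers, none of those next described passed. Slc25a13 had a signal of 102, 144 and 213 in tau animals and of 82.6, 111 and 175 in control animals (0.38, limma adjusted p = 0.0715). Slc25a10 had 84.7, 143 and 201 in tau animals and 73.0, 103 and 163 in control animals (0.38, limma adjusted p = 0.0930). Slc25a34 had 187, 265 and 361 in tau animals and 154, 179.9 and 316 in control animals (0.41, limma adjusted p = 0.0715). The citrate carrier Slc25a1 had 47.3, 74.97 and 103 in tau animals and 40.6, 61.3 and 93.1 in control animals (0.29, limma adjusted p = 0.134). For Slc25a23 the values were 95.1, 140.5 and 185 in tau animals and 80.3, 121 and 163 in control animals (0.24, adjusted p = 0.2003).

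The carriers of ATP synthesis lay the other way or near 0. Slc25a4 had a signal of 636, 3098 and 4795 in tau animals and of 1056, 4153 and 5222 in control animals. The animals of slide 2 held the 4 lowest values, 636 and 1616 in tau and 1056 and 1337 in control. The difference was -0.30 ± 0.2001 (limma adjusted p = 0.387), and -0.24, -0.23 and -0.43 on slides 1, 2 and 3. Slc25a3 had 283, 957 and 1358 in tau animals and 405, 1386 and 1662 in control animals. Slc25a3 was the 1 member lower at an unadjusted p under 0.05 (-0.32 ± 0.145, limma adjusted p = 0.242, and -0.28, -0.13 and -0.54 by slide). Over the alternative fits its difference ran from -0.55 to -0.11. Its limma or edgeR adjusted p ran from 0.0294, in the limma fit without T7, to 0.966. The second translocator, Slc25a5, had 52.1, 73.1 and 79.3 in tau animals and 57.4, 66.2 and 82.3 in control animals.

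Slc25a12 had a signal of 271, 417 and 555 in tau animals and of 253, 449.8 and 505 in control animals, a difference of 0.03 ± 0.102 (limma adjusted p = 0.884). Slc25a20 had 156, 177 and 193 in tau animals and 142, 177 and 239 in control animals (-0.03 ± 0.0955, adjusted p = 0.887). The sign of both changed with the processing. Slc25a25 ranged from 162 to 408 in tau animals (median 215) and from 172 to 307 in control animals (median 208). Slc25a42 had 54.9, 62.0 and 76.9 in tau animals and 50.8, 74.9 and 95.7 in control animals, and Slc25a33 had 66.1, 79.8 and 88.4 in tau animals and 61.2, 70.8 and 88.7 in control animals. The tau and control ranges overlapped for each of these.

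**Figure D3:**
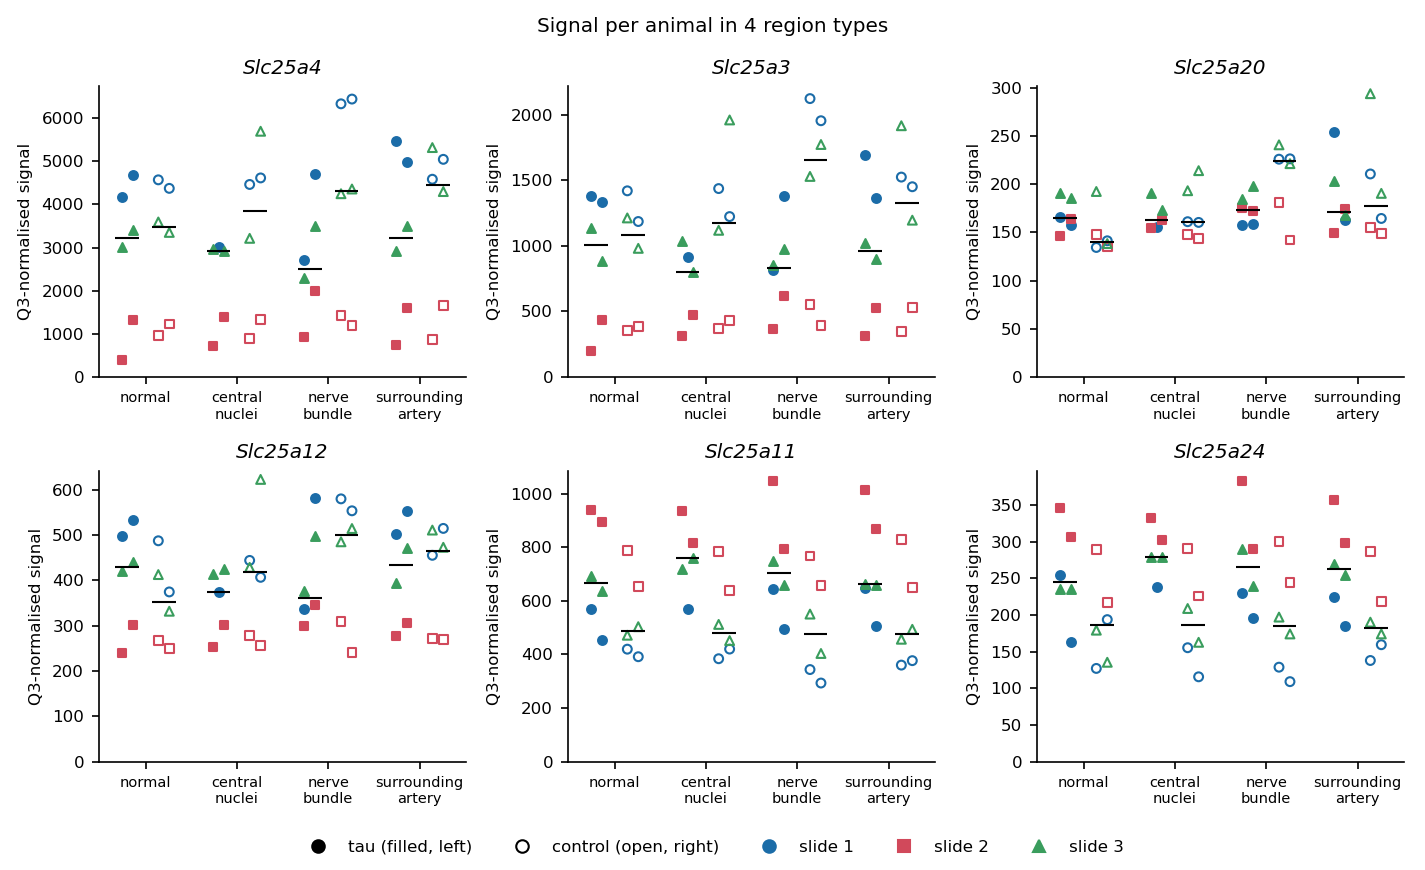
Q3-normalised signal per animal in the 4 region types for 6 members (tau filled, left; control open, right; bars are medians, symbols give the slide). Slide 2 holds the lowest values of Slc25a4, Slc25a3 and Slc25a12 and the highest of Slc25a11 and Slc25a24, in tau and in control animals alike.

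By region type, 35 of 43 members were above 0 in normal fibres (65.5% of all genes), 33 in central nuclei (65.7%), 33 in nerve bundle (69.9%) and 31 around arteries (65.3%). In normal fibres 0 of 43 members passed (percent called 0), and 12 were higher at an unadjusted p under 0.05 (27.9%, against 9.2% of all genes) and 0 lower (4.4% of all genes). The 3 with the smallest p were Slc25a43 (0.43 ± 0.113, limma adjusted p = 0.171), Slc25a24 (0.45 ± 0.138, limma adjusted p = 0.209) and Slc25a13 (0.33 ± 0.106, limma adjusted p = 0.217). On slides 1, 2 and 3 Slc25a43 differed by 0.64, 0.24 and 0.41, Slc25a24 by 0.37, 0.38 and 0.59, and Slc25a13 by 0.27, 0.35 and 0.38.

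In central nuclei regions, with 5 tau and 6 control animals, 0 members passed (percent called 0), 17 were higher at an unadjusted p under 0.05 (39.5%, against 13.2%) and 1 was lower (2.33%, against 7.42%). Slc25a24 had a signal of 238, 279 and 332 in tau animals and of 116, 186 and 291 in control animals. Its difference was 0.54 ± 0.126 (limma adjusted p = 0.0674), and 0.83, 0.30 and 0.59 on slides 1, 2 and 3. Slc25a11 differed by 0.47 ± 0.121 (adjusted p = 0.0741) and Slc25a34 by 0.44 ± 0.115 (adjusted p = 0.0755), on slides 1, 2 and 3 by 0.50, 0.31 and 0.62 and by 0.33, 0.31 and 0.64. With the filter at 2 times the negative probe 9 of 27 members passed here (33.3%, against 14.3% of genes), and all 9 were higher in tau. They were not the same 9 as in the mean of 3 region types. Slc25a46, whose ratio differed 1.28-fold over slides, passed here and Slc25a45 did not.

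In nerve bundle 0 members passed (percent called 0), 14 were higher at an unadjusted p under 0.05 (32.6%, against 10.1%) and 1 was lower (2.33%, against 2.42%). Slc25a24 differed by 0.55 ± 0.142, Slc25a11 by 0.59 ± 0.156 and Slc25a47 by 0.59 ± 0.164, each with a limma adjusted p of 0.3001. By slide Slc25a24 differed by 0.84, 0.30 and 0.51, Slc25a11 by 0.83, 0.36 and 0.57, and Slc25a47 by 0.79, 0.46 and 0.52. The member lower here was Slc25a3, at -0.59 ± 0.215 (limma adjusted p = 0.361), and its differences were -0.94, 0.03 and -0.85 on slides 1, 2 and 3. Sdhb, a subunit of respiratory complex II, differed by -0.81 ± 0.263 (adjusted p = 0.336) in the same regions, and 3 of 16 mitochondrial content genes were above 0.

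Around arteries 0 members passed (percent called 0), 16 were higher at an unadjusted p under 0.05 (37.2%, against 9.86%) and 0 lower (2.34% of all genes). Slc25a45 differed by 0.57 ± 0.128, Slc25a24 by 0.45 ± 0.107 and Slc25a11 by 0.49 ± 0.118, each with a limma adjusted p of 0.124. By slide the differences were 0.86, 0.18 and 0.68 for Slc25a45, 0.45, 0.38 and 0.53 for Slc25a24, and 0.64, 0.36 and 0.48 for Slc25a11. With the filter at 2 times the negative probe 6 of 27 members passed (22.2%, against 2.94% of genes). All of these comparisons use the same control animals.

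The tau difference is given here by the same split of the ratio over slides. Of the 23 members whose ratio to the negative probe was within 1.2-fold over slides, 22 had a tau difference above 0 in the mean of 3 region types, with a median of 0.29 and a range of -0.02 to 0.48. Of the other 20, 12 were above 0, with a median of 0.05 and a range of -0.32 to 0.32. The negative probe value itself was higher in tau by 0.23 on the log2 scale. Taken as a ratio to the negative probe, 14 of the 23 were above 0 (median 0.06) and 2 of the 20 (median -0.19). That scale lowers nearly every gene by the same amount, so the median of all genes was -0.15, against 0.09 on the scale of the signal, and that of the members -0.07, against 0.16. The members' median was above that of all genes by a like amount on both scales, and the sign of a member's difference depends on the scale. On the ratio scale Slc25a24 was at 0.25 ± 0.119 (limma adjusted p = 0.237) and Slc25a11 one of 0.25 ± 0.149 (adjusted p = 0.307), whereas Slc25a4 was at -0.54 ± 0.263 (adjusted p = 0.244) and Slc25a3 at -0.55 ± 0.219 (adjusted p = 0.190). When slide and background were both covariates, the members' median was 0.02 and that of all genes 0.03, with 0.11 over the 23 members (16 above 0) and -0.0051 over the 20 (10 above 0). In central nuclei that fit turned the order, with 0.07 over the 23 and 0.11 over the 20. The part of background in the tau difference was not tested beyond these fits. That of depth was not tested, since no fit held the total count as a covariate.

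**Figure D4:**
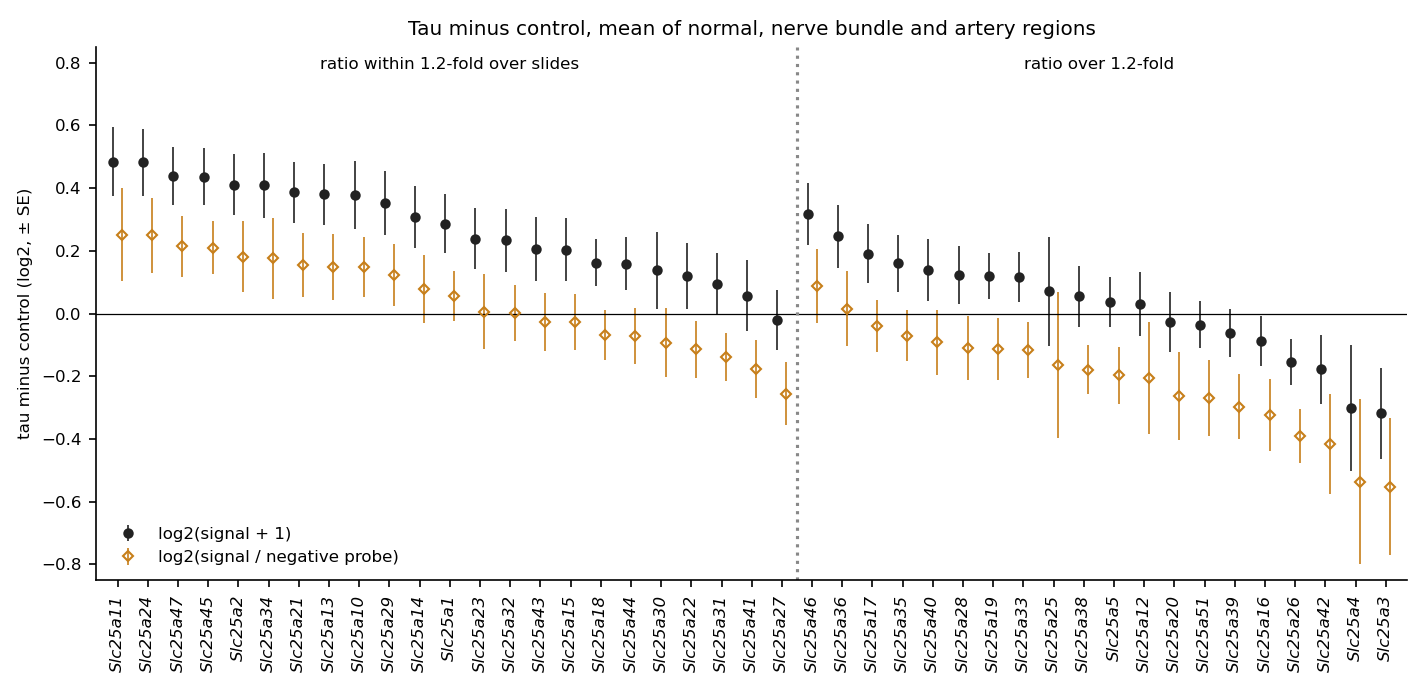
Tau minus control for each member in the mean of 3 region types (± SE), as log2(signal + 1) in black and as log2 of the ratio to the negative probe in orange, split at a ratio that differs 1.2-fold over slides. Of the 23 members on the left, 22 black points lie above 0, against 12 of 20 on the right, and the orange points of Slc25a24 and Slc25a11 stay above 0 at 0.25.

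Of 27 other genes of mitochondrial transport, 0 passed for tau in the mean of 3 region types and 14 were above 0, with a median of 0.03, where 72.3% of all genes were above 0. Cpt2, a carnitine palmitoyltransferase that acts after Slc25a20, differed by -0.37 ± 0.104 (limma adjusted p = 0.0924), and -0.53, -0.09 and -0.49 by slide. Mcu, the calcium uniporter, differed by -0.24 ± 0.0882 (adjusted p = 0.166). Of the 16 mitochondrial content genes 0 passed and 6 were above 0 (median -0.03). Atp5a1 differed by -0.50 ± 0.188 (adjusted p = 0.172), and the import subunit gene Timm23 by 0.42 ± 0.113 (adjusted p = 0.0809). Of 9 regulators 0 passed and 4 were above 0. Of the 10 fast-fibre markers 2 were above 0, with a median of -0.16. Of the Schwann cell markers 5 of 5 tested were above 0, with a median of 0.37, and of the slow-fibre markers 4 of 5 tested, with a median of 0.40, and 0 of either list passed. The part of these cells in the members' differences was not tested.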

How the data were processed

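The deposited values are Q3-normalised signal per gene and region on a linear scale, scaled by the authors, per the file headers, which also give total counts, negative probe values and scans. The submitters' processing notes name mm10; the read counter and the choice of regions were not given in the sources used here. Members and gene lists were chosen with earlier results of these data known. The members named for each comparison are the 3 with the smallest p, beside the carriers of each role.

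Genes at 1.5 times the negative probe or more in 10% of regions were tested (10188, with 654 left out), and all 43 members passed. Values were taken as log2(signal + 1), averaged per animal and region type, since regions outnumber animals, and fitted with limma 3.58.1 in R 4.3.3 (trended variance, Benjamini-Hochberg adjustment over all genes tested, threshold 0.05). Tau was compared with control with slide as a covariate. Region types were compared as differences within an animal, so that the animal is the block and pairs the samples, and these differences were compared between tau and control. A fold on this scale understates the change of low genes.

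Values were whole multiples of 1 read in 99.98% to 99.99% of genes per region (within 0.02 of a step). Those reads were fitted with edgeR 4.0.16, which called 195 genes for tau in central nuclei, 62 around arteries and 4 in nerve bundle against normal fibres, and 0 in the other comparisons. Total counts per region set the precision, and p-values rest on 12 animals. Figures were drawn with matplotlib 3.10.9.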

Additional observations from a re-analysis of the deposited data

Results flagged for a closer look

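In 3 of 120 groups screened (15 members, with 6 animals a group, or 5 for tau in central nuclei), 1 animal stood far from the others, where chance flags about 1 in 20 groups, or 6. Slc25a5 in normal fibres of tau animals was 47.6 in T30 of slide 1, with the others at 72.2 to 83.9. Slc25a33 around arteries was 56.0 in the same tau animal, with the others at 79.1 to 91.5. Slc25a20 in normal fibres of control animals was 193 in C16 of slide 3, with the others at 134 to 148.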

How the results depend on the processing

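Of 1022 alternative values for 38 named differences, 980 kept their direction and their side of the threshold, 31 passed it and 11 changed sign. With the filter at 2 times the negative probe in 50% of regions, 27 members were tested. For tau 9 were called in the mean of 3 region types, where 8.63% of genes were. In central nuclei 9 were called (14.3% of genes) and around arteries 6 (2.94%). For slide 24 were called. For tau in central nuclei called members numbered 5 with quantile normalisation, 2 with the negative probe subtracted and 1 with 1 region per animal and type. On the ratio to the negative probe 1 was called there (Slc25a16 at -0.49, lower in tau). On that scale slide called 19 of 43 members, where 66.2% of genes were called. Leaving out 1 animal gave 0 to 10 called members for tau in the mean of 3 region types. It gave 0 to 3 in central nuclei (1 without C3, 3 without T7) and 34 to 41 for slide. Counts given with no share of all genes show nothing particular to the family. The tau difference of Slc25a12 was -0.013 with labelled sex in place of slide, -0.024 without slide 2, -0.20 on the ratio scale and -0.046 by edgeR, and -0.012 to 0.075 with 1 animal left out. That of Slc25a20 was 0.025 with quantile normalisation, 0.029 without slide 3 and -0.067 to 0.038 with 1 animal left out. The stricter filter tests fewer genes, and the cause of these changes was not tested for any setting. Without the animal as a block, that is with no replicate block, 0 members were called in the 6 region comparisons, as with the pairing. Leaving out slides, the ratio scale and edgeR were chosen after seeing the data. Members near the negative probe are limited by background.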
